A study of Mus musculus with 24 samples.

Results

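The expression of 10 genes of CaMKII and calcineurin signalling was followed through heart development and through the differentiation of mouse embryonic stem (ES) cells toward cardiomyocytes. The genes were taken by name, with every feature whose platform symbol was one of them: the kinase subunits Camk2a, Camk2b, Camk2d and Camk2g, the calcineurin catalytic subunits Ppp3ca and Ppp3cb, the calcineurin regulators Rcan1 and Rcan2, and the transcription factors Nfatc3 and Nfatc4. They account for 10 of the 19920 genes tested and for 178 of the 197711 exon-level probe sets used. Each gene has 1 gene-level row, and from 9 (Rcan1) to 27 (Camk2b) probe sets. Affymetrix mouse gene arrays were used on 12 RNA samples in 6 groups of 2: undifferentiated ES cells at day 0 of culture, embryonic bodies at day 7, cardiac bodies at day 14, and whole hearts from embryos at E17.5, from pups at P1 and from adults. All values are log2 signals, so a difference of 1 is a doubling. No strain, sex, adult age or ES cell line is given in the labels, and hearts are mixed tissue. The labels do not say whether the arrays of a group came from separate animals or cultures, so p-values measure only the spread between these samples, which may be technical.

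CaMKII is a kinase that calcium-loaded calmodulin switches on, and that can then stay active by phosphorylating itself. Its subunits come from 4 genes with much alternative splicing in the linker between the kinase and association domains. In heart muscle the delta subunit is the best known, acting on calcium release, calcium uptake and gene control. Calcineurin is the phosphatase that calcium and calmodulin switch on. It removes phosphate from NFAT factors, which then enter the nucleus, and the Rcan proteins bind and restrain it. Rcan1 is also a classical target of calcineurin and NFAT, through a start site inside the gene.

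Rcan1 and Rcan2 each have more than 1 start in RefSeq, and their probe sets did not move as a single block (described below with the values). The 250 bases before the start farthest upstream and before the one farthest downstream are therefore shown for each gene, from RefSeq on GRCm38.p6, 5′ to 3′ on the gene's strand. Capitals mark GGAAA on either strand, the core letters of NFAT sites. The windows lie at chr16:92466170-92466419 and chr16:92400079-92400328 for Rcan1 (minus strand), and at chr17:43801102-43801351 and chr17:43952749-43952998 for Rcan2 (plus strand).
Rcan1 upstream start: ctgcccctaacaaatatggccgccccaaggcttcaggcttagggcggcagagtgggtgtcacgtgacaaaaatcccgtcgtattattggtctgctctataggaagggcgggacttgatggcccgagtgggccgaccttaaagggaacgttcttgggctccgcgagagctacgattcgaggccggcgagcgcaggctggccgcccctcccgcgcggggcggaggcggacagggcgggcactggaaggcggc
Rcan1 downstream start: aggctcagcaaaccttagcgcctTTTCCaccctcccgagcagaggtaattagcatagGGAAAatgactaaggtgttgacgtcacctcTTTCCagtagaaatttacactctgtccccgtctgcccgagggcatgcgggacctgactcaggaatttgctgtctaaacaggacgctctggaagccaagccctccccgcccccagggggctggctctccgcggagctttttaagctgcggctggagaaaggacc
Rcan2 upstream start: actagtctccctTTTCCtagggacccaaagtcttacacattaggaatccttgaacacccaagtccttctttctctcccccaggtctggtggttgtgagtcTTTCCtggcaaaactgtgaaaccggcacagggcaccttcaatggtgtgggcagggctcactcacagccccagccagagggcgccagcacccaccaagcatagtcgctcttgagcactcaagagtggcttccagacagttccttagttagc
Rcan2 downstream start: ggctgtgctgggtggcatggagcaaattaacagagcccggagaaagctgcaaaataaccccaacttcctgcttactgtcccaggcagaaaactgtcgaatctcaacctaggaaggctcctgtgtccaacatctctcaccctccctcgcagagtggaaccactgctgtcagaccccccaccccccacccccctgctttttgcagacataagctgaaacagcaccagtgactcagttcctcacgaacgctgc
The Rcan1 downstream window holds 3 matches to GGAAA and the Rcan1 upstream window 0. The Rcan2 upstream window holds 2, and the downstream window 0. GGAAA is common: 55.6% of 32851 RefSeq windows of the same length hold at least 1 match, and 6.39% hold 3 or more. TGANTCA, the AP-1 motif, was searched on both strands and has 1 match in each downstream window. That motif is in 6.75% of the windows, and it does not overlap the GGAAA letters shown. These matches describe letters only. The probe sets have no coordinates in the annotation used here, so none could be assigned to a start.

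Marker genes placed the groups as labelled, with mixtures. All 6 cardiomyocyte markers lay above the array median in cardiac bodies and in E17.5 and P1 hearts, and at least 5 did so in adult hearts, against at most 2 in ES cells and embryonic bodies. The adult exception was Myl7, at 5.42 on adult replicate 1 and 11.27 on adult replicate 2. It read 11.88 to 12.28 in E17.5 and P1 hearts. The adult arrays thus differ widely in this marker, and the cause was not tested. The 5 pluripotency markers lay above it in ES cells, embryonic bodies and cardiac bodies, but their mean was 10.86 to 10.91 in ES cells, 7.59 to 7.65 in embryonic bodies and again 9.84 to 10.05 in cardiac bodies. By this mean the cardiac bodies stood closer to ES cells than the embryonic bodies did. The levels of Ppp3cb, Nfatc4, Ppp3ca and Camk2b, given with those genes, lay in the same order of closeness. Those of Camk2a, Camk2d, Camk2g, Rcan1 and Rcan2 lay in the opposite order, and Nfatc3 was about equally far in both. These distances were not tested against each other. Of 10 neuron markers 1 lay above the median on each heart array. In ES cells 5 did, in embryonic bodies 2 or 3, and in cardiac bodies 4. Their mean was 5.91 to 6.06 in ES cells, 5.30 to 5.56 in embryonic bodies and 5.62 to 5.77 in cardiac bodies. In hearts it was 4.76 to 5.06. At most 1 of 6 skeletal muscle markers lay above the median on any array. The mean of 4 fibroblast markers was 10.2 to 10.7 in E17.5 and P1 hearts, 9.35 to 9.52 in adult hearts and 5.82 to 6.02 in cardiac bodies, and differed between the embryonic body arrays (6.08 and 8.0). The mean of 4 endothelial markers was 5.64 to 5.66 in ES cells, 7.23 to 7.85 in embryonic bodies, 5.68 to 5.95 in cardiac bodies and 9.10 to 9.44 in hearts. That of 4 smooth muscle markers was 5.62 to 5.73 in ES cells, 7.66 to 7.94 in embryonic bodies, 7.88 to 8.46 in cardiac bodies, 8.88 to 9.11 in E17.5 and P1 hearts and 7.51 to 7.65 in adult hearts. The fibroblast, endothelial and smooth muscle lists thus moved with the rises from ES cells to embryonic bodies, and the endothelial and fibroblast lists with the falls to cardiac bodies. All of these lists were lower in cardiac bodies than in E17.5 hearts. So were the means of the cardiomyocyte markers (11.3 to 11.8 against 12.2 to 12.3) and of the macrophage markers. Those of the pluripotency and neuron markers were higher in cardiac bodies. The mean of 4 macrophage markers was highest in adult hearts (7.48 to 7.66, against at most 6.15 elsewhere). Of these markers Cd68 was about as high in ES cells (7.93 and 8.24) as in adult hearts (7.87 and 8.01). The part of these cell types in the results was not tested. Replicate arrays correlated at 0.971 to 0.993 over genes.

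**Figure D1:**
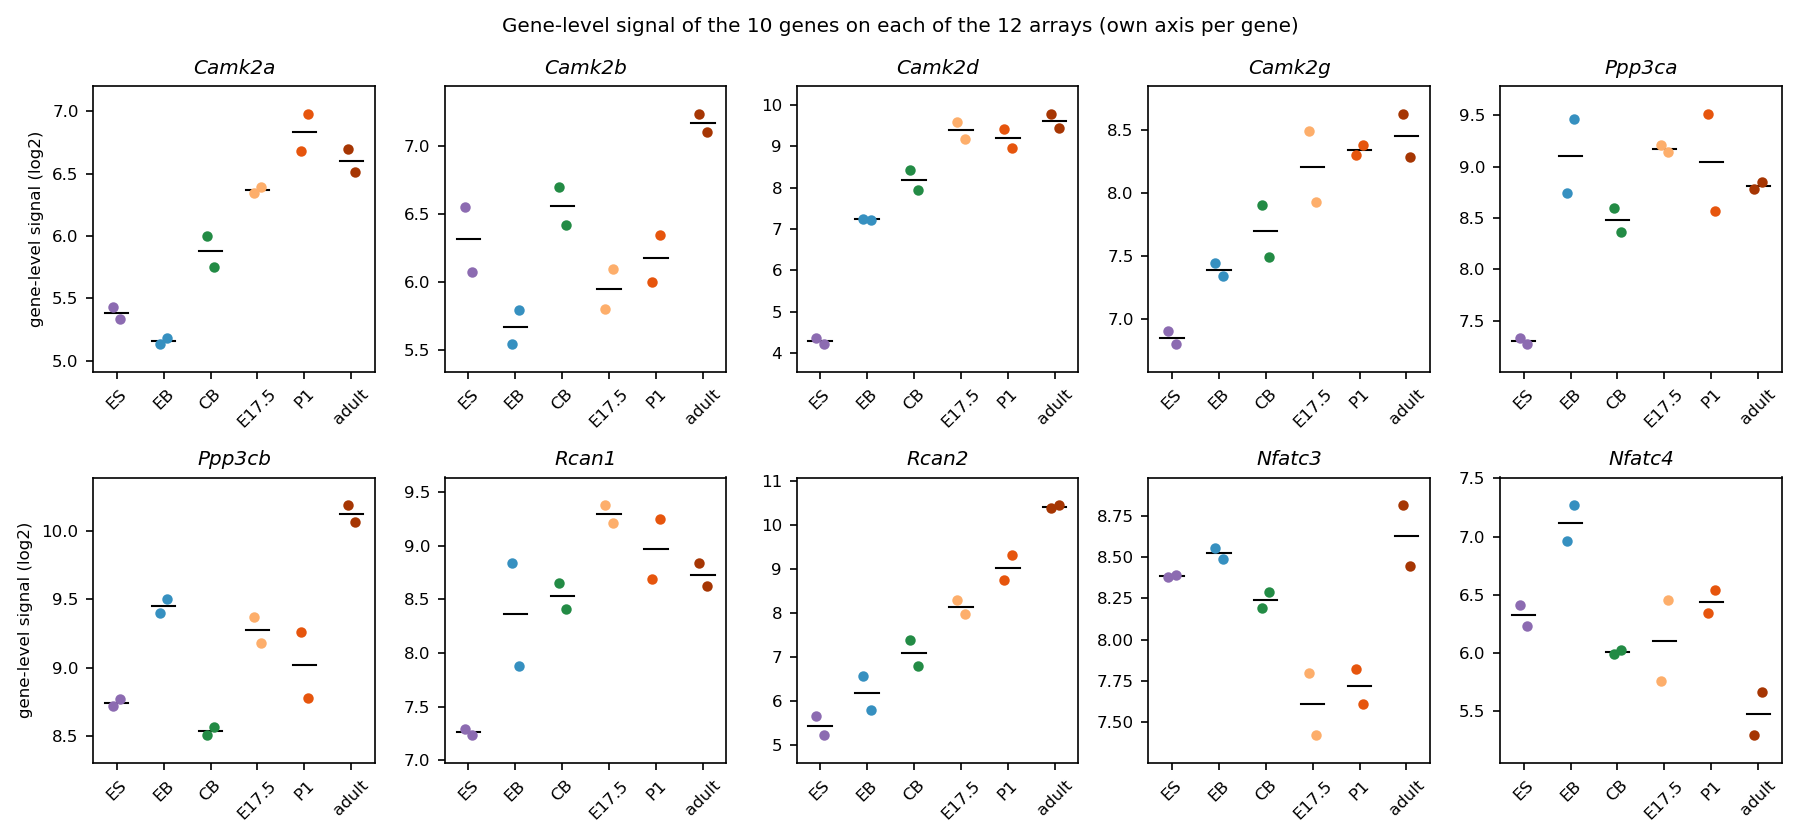
Gene-level signal (log2) of each gene on each of the 12 arrays. Points are arrays (2 in each group), bars are group means, and each gene has its own vertical axis. Camk2d rises from about 4.29 in ES cells to over 9 in hearts, and Rcan2 is highest in adult hearts (10.43).

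All 10 genes differed among the 6 groups (limma moderated F test, adjusted p under 0.05), as did 59.6% of all genes. Between embryonic bodies and ES cells 5 of the 10 rose and 0 fell, while 12% of all genes rose and 8.61% fell (20.6% called). Cardiac bodies against embryonic bodies gave 3 that rose and 2 that fell (5.45% and 6.43% of all genes, 11.9% called). Against ES cells, 5 rose in cardiac bodies and 0 fell (6.19% and 3.61%, 9.8% called). These shares of the 10 were above those of all genes, but they rest on few arrays. The genes were also chosen with earlier results of these data known, so the excess is a description and not a test. With 1 array left out the counts fell to as few as 2 (embryonic bodies against ES cells), 0 (cardiac against embryonic bodies) and 1 (cardiac bodies against ES cells). The first of these was without ES cell replicate 1 and the others without cardiac body replicate 1. Of the 5 calls in each, 2, 0 and 1 were kept whichever array was left out. No gene of the 10 was called between P1 and E17.5 hearts (0 at an adjusted p under 0.05 in limma, 2 at an unadjusted p under 0.05), where 5.13% of all genes were. From P1 to adult, 4 rose and 1 fell (15.6% and 14.7% of all genes, 30.2% called), and adult against E17.5 hearts gave 4 that rose and 0 that fell (18.1% and 18%, 36.1% called). Cardiac bodies against E17.5 hearts gave 1 gene that was higher and 3 that were lower (12.1% and 11.6%, 23.7% called). With 10 genes, the counts in the heart comparisons are near these shares. The median change of the 10 was 0.72 in embryonic bodies against ES cells and 0.67 in cardiac bodies against ES cells, where the medians of all genes were -0.03 and -0.05. Comparisons that share a group, such as both with adult hearts, are not independent. For the order of the groups other pairs were also fitted, in which the share of all genes called was 36.2% (E17.5 hearts against ES cells), 50.7% (adult hearts against ES cells), 36.8% (P1 hearts against embryonic bodies), 49.4% (adult hearts against embryonic bodies), 32.4% (cardiac bodies against P1 hearts) and 47.3% (cardiac bodies against adult hearts).

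**Figure D2:**
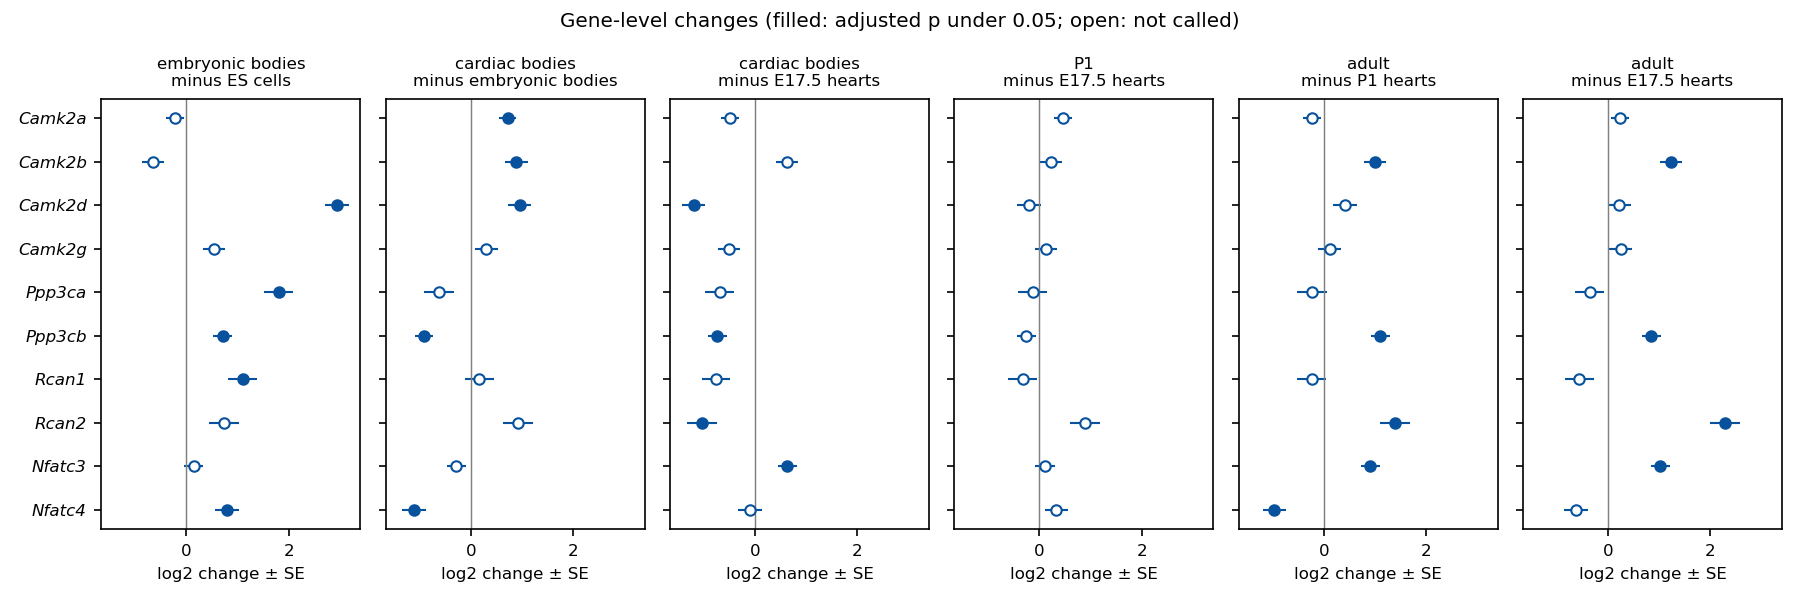
Log2 change ± SE of each gene in 6 comparisons, from the limma fit over 12 arrays. Filled points passed an adjusted p under 0.05. Camk2d has the largest rise of the 10 genes from ES cells to embryonic bodies (2.94), and Rcan2 the largest from E17.5 to adult hearts (2.28).

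Of the 178 probe sets taken by themselves, 29 rose and 0 fell in embryonic bodies against ES cells, while 4.04% of all probe sets rose and 1.98% fell (6.02% called). In cardiac bodies against embryonic bodies 5 rose and 0 fell (1.62% and 0.883%, 2.51% called), and against ES cells 36 rose and 0 fell (2.43% and 0.362%, 2.79% called). From E17.5 to P1, limma called 0 (0.467% of all probe sets; 23 of the 178 at an unadjusted p under 0.05). Most of the culture rises came from a single gene: Camk2d held 19 of the 29 and 21 of the 36, and Ppp3ca held 8 of the 29. No probe set of Ppp3cb or Nfatc4, which fell from embryonic to cardiac bodies as genes, was called in those 3 culture comparisons. From P1 to adult 26 rose and 10 fell (8.47% and 10.5%, 18.9% called), and from E17.5 to adult 38 rose and 11 fell (11.5% and 13.5%, 25% called). Between cardiac bodies and E17.5 hearts 5 were higher and 6 lower (4.23% and 4.4%, 8.63% called). This test of single probe sets was added after the data were seen. The planned measure was the splicing index, the log2 value of a probe set minus the log2 value of its gene on the same RNA, called at an adjusted p under 0.05 and a change of at least 1. A called index says that a probe set changed by another amount than its gene did, and names no isoform.

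The index was called for 29 of 122 probe sets tested between adult and E17.5 hearts, 15 higher and 14 lower, where 8.34% of all probe sets tested were higher and 8.14% lower (16.5% called). Between adult and P1 hearts it was called for 18 of 138, 8 higher and 10 lower (6.04% and 7.43% of all, 13.5% called). In the other 5 comparisons limma called 0, where 0.0377% (embryonic bodies against ES cells), 0.0032% (cardiac against embryonic bodies), 0.11% (cardiac bodies against ES cells), 0% (P1 against E17.5) and 0.236% (cardiac bodies against E17.5 hearts) of all were called. At an unadjusted p under 0.05 those 5 comparisons held 8 of 73, 6 of 96, 9 of 80, 15 of 116 and 12 of 99 of the genes' probe sets. Adult hearts are a single group of 2 arrays, and no batch is given in the labels, so age and any difference in array handling cannot be told apart. Of the 29 calls against E17.5 hearts, 10 were kept whichever array was left out, and of the 18 against P1 hearts 7 were.

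Camk2d, the delta subunit, had the widest range of the 10 genes. Its gene-level signal was 4.36 and 4.22 in ES cells, 7.24 and 7.22 in embryonic bodies, 8.43 and 7.95 in cardiac bodies, 9.59 and 9.18 in E17.5 hearts, 9.42 and 8.96 in P1 hearts, and 9.79 and 9.43 in adult hearts. The ES cell arrays stood far below all others, under those arrays' medians of 5.63 and 5.61, and the cardiac bodies lay below every heart array. In ES cells 2 of its 26 probe sets were at or above the median, and no test of this signal over background was made, so differences from ES cells carry no fold. Camk2d rose by 2.94 ± 0.23 (SE) from ES cells to embryonic bodies (adjusted p = 3.24e-06). It rose again by 0.96 ± 0.23 to cardiac bodies (adjusted p = 0.0173), a call lost without either embryonic body array or without cardiac body replicate 1 (adjusted p 0.0648 to 0.177). Cardiac bodies were 3.89 ± 0.23 above ES cells (adjusted p = 4.71e-07) and 1.2 ± 0.23 below E17.5 hearts (adjusted p = 0.00227). In order of level the groups were ES cells, embryonic bodies, cardiac bodies, P1, E17.5 and adult hearts. The neighbouring steps passed the test up to P1 hearts, whereas P1 and E17.5 (0.20, adjusted p = 0.774) and E17.5 and adult hearts (0.22, adjusted p = 0.503) did not differ beyond their spread. In bulk RNA, fewer cells of a type and less RNA per cell cannot be told apart.

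Most of the 26 Camk2d probe sets rose with the gene. In cardiac bodies against ES cells 21 rose, by 1.92 (10495914) to 5.71 (10495917), against 3.89 for the gene. The others were 10495898, 10495897, 10495905, 10495913 and 10495922, with changes of 0.56, 1.14, -0.20, 3.04 and 0.60 that did not pass. Probe set 10495898 was already strong in ES cells, at 9.92 and 10.18, and read 10.44 to 10.78 in cardiac bodies and 10.95 to 11.29 in hearts, a rise of about 1 where the gene moved by about 5. Its ES cell and heart arrays did not overlap. Probe sets 10495905 and 10495922 had group means of only 3.99 to 5.67 and 5.90 to 7.29 over the 6 groups. In embryonic bodies against ES cells 19 rose, by 1.64 (10495899) to 4.72 (10495903). Between embryonic and cardiac bodies 1 probe set rose, 10495919, by 2.26 ± 0.41 (adjusted p = 0.02). It read 3.64 and 3.08 in ES cells, 4.14 and 3.68 in embryonic bodies, 6.10 and 6.23 in cardiac bodies, and 7.73 to 9.39 in hearts. Its groups did not overlap between the embryonic bodies and any later group. Against E17.5 hearts, cardiac bodies were lower in 10495921 (-3.02), 10495919 (-2.0), 10495899 (-1.51) and 10495908 (-1.35).

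Between E17.5 and adult hearts Camk2d as a gene moved by 0.22 ± 0.23, and 4 of its 25 probe sets tested had a called index. That share is near the 16.5% of all probe sets tested that were called. Probe set 10495914 read 6.70 and 6.09 at E17.5, 7.25 and 7.49 at P1, and 8.48 and 7.72 in adults. Its adult arrays lay above all others, and its index rose by 1.48 ± 0.34 (adjusted p = 0.0189). Probe sets 10495920 (index 1.32, adjusted p = 0.0141) and 10495897 (index 1.32, adjusted p = 0.0471) also rose against the gene, and 10495917 fell against it (index -1.23, adjusted p = 0.044). Probe set 10495917 read 10.04 and 10.05 at E17.5 and 9.56 and 8.52 in adults, so its own change of -1.01 did not pass (adjusted p = 0.129). Each of the 4 calls was lost without some array: 10495914 without either E17.5 array or adult replicate 1 (adjusted p 0.0569 to 0.0999), 10495920 without E17.5 replicate 2 or adult replicate 1 (0.0671 to 0.0768), 10495897 without any of 8 arrays (to 0.205) and 10495917 without any of 9 (to 0.206). With the median of the other probe sets as the gene value, the calls of 10495914 (adjusted p = 0.0714), 10495920 (0.0667) and 10495897 (0.168) were lost and that of 10495917 was kept (0.0148). With no level filter those of 10495897 (0.0576) and 10495917 (0.0541) were lost. The remaining probe sets were not called in the index. In their own values 10495901 (1.32), 10495919 (0.94), 10495915 (0.89), 10495899 (0.74), 10495912 (0.71), 10495904 (0.54), 10495905 (0.53) and 10495900 (0.51) were the more positive. Values of 0.44 to 0.02 were seen for 10495911, 10495902, 10495910, 10495909, 10495916, 10495903, 10495908, 10495906 and 10495898. Values of -0.04 to -0.40 were seen for 10495907, 10495922, 10495921, 10495918 and 10495913. None of these passed the test in its own value. In the F test over the 6 groups Camk2d was outside the level filter, because its ES cell mean lay under the median of all genes tested there (5.95). Without that filter its lowest adjusted p was 0.00129, for 10495898.

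Camk2g, the gamma subunit found in many tissues, climbed in smaller steps. Its signal was 6.90 and 6.80 in ES cells, 7.44 and 7.34 in embryonic bodies, 7.90 and 7.49 in cardiac bodies, 8.49 and 7.93 in E17.5 hearts, 8.30 and 8.39 in P1 hearts, and 8.63 and 8.28 in adult hearts. The culture groups did not overlap with each other, and the heart groups overlapped. Of the 7 main comparisons 1 was called: cardiac bodies were 0.85 ± 0.22 above ES cells (1.80-fold, adjusted p = 0.0283). That call was lost without either ES cell array or without cardiac body replicate 1 (adjusted p 0.118 to 0.270), and with the median of the exon-level probe sets as the gene value (0.163). In the order ES cells, embryonic bodies, cardiac bodies, E17.5, P1 and adult hearts no neighbouring step passed, while adult hearts exceeded ES cells by 1.60 ± 0.22 (adjusted p = 4.28e-05).

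From E17.5 to adult hearts 3 of 22 Camk2g probe sets tested had a called index, beside 16.5% of all probe sets tested. Probe set 10417975 read 5.33 and 4.78 in ES cells, 6.78 and 4.66 in embryonic bodies, 6.67 and 6.32 in cardiac bodies, 7.61 and 7.40 at E17.5, 6.92 and 7.34 at P1, and 5.20 and 4.05 in adults. The adult arrays lay below every other heart and cardiac body array. Its own signal fell by 2.88 ± 0.63 from E17.5 to adult (adjusted p = 0.0102), and its index by 3.13 ± 0.58 (adjusted p = 0.00831), the index call being lost without E17.5 replicate 2 (adjusted p = 0.0558). From P1 to adult the index fell by 2.62 ± 0.58 (adjusted p = 0.0189, and 0.0712 to 0.0997 without either P1 array or adult replicate 2). The index also fell for 10417974 (-1.45, adjusted p = 0.0256, lost without E17.5 replicate 2 or either adult array, to 0.149) and 10417992 (-1.05, adjusted p = 0.0179, lost without either E17.5 array or adult replicate 1, to 0.0832). Probe sets 10417976 (1.69), 10417991 (1.30) and 10417981 (1.02) rose in their own signal from E17.5 to adult. Others with positive values that did not pass were 10417994 (1.49), 10417995 (0.89), 10417980 (0.86), 10417986 (0.80), 10417979 (0.51), 10417996 (0.39), 10417985 (0.17) and 10417982 (0.01). Those with negative values were 10417973 (-0.90), 10417997 (-0.53), 10417993 (-0.41), 10417977 (-0.23), 10417988 (-0.23), 10417983 (-0.20), 10417987 (-0.19), 10417989 (-0.08) and 10417990 (-0.08).

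Across all 6 groups, 13 of 78 probe sets tested had a called index in the F test, where 13% of all probe sets tested did. Camk2g gave 4 of its 23: 10417975, 10417981, 10417982 and 10417997. Probe set 10417982 was low in ES cells (4.01 and 4.80) and level in hearts (7.67 to 7.98). It was the one Camk2g probe set that rose between ES cells and cardiac bodies, by 2.30 ± 0.36 (adjusted p = 0.00836). Probe set 10417997 stayed between 9.61 and 10.66 on all 12 arrays while the gene climbed by 1.60. The other calls were Nfatc3 with 5, Ppp3ca with 2 and Rcan1 with 2. Camk2a, Camk2b, Camk2d, Rcan2 and Nfatc4 were outside this test, because the mean of each lay under the median of all genes (5.95 to 6.14) in at least 1 group.

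Camk2a, the alpha subunit best known from neurons, was at 5.43 and 5.34 in ES cells and 5.13 and 5.18 in embryonic bodies. It reached 6.0 and 5.75 in cardiac bodies, 6.35 and 6.39 at E17.5, 6.68 and 6.98 at P1, and 6.70 and 6.51 in adults. The heart arrays all lay above the culture arrays. Camk2a rose by 0.72 ± 0.17 from embryonic to cardiac bodies (adjusted p = 0.0179), a call lost without either embryonic body array or cardiac body replicate 1 (adjusted p 0.0624 to 0.158) and with the median of its probe sets in place of the gene row (0.179). E17.5 hearts exceeded ES cells by 0.99 ± 0.17 (adjusted p = 5.97e-04). No neighbouring step in the order of levels passed.

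Behind these small gene-level steps the 24 Camk2a probe sets fell into separate runs of identifiers, a split drawn after the values were seen and given with no test. Among the 14 probe sets from 10456022 to 10456035 the median change from ES cells to E17.5 hearts was -0.08, and 0 of them moved up by 1 or more. Among the 10 from 10456036 to 10456045 it was 2.75, and 9 moved up by 1 or more. Cardiac bodies against ES cells showed the same contrast, with medians of -0.31 and 1.63. In that comparison 4 probe sets rose, and all of them belong to the later run: 10456041 (2.72), 10456039 (2.43), 10456038 (2.05) and 10456040 (1.38). Most of the earlier run read low. At E17.5 only 10456029 (7.97) and 10456033 (7.24) of that run lay over the median of all probe sets (6.68). The others of that run read 3.33 to 6.04. In ES cells 2 of all 24 Camk2a probe sets lay at or above the median. Signals were not tested against background, so a flat change in the earlier run need not mean a level transcript. Muscle is known to make alphaKAP, an anchoring protein without the kinase domain, from within Camk2a. Whether the probe sets of the later run read it was not tested.

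Adult hearts differed from E17.5 hearts in both runs. Probe set 10456029 read 7.90 and 8.03 at E17.5, 7.08 and 7.83 at P1 and 6.12 and 5.91 in adults, against 7.37 to 7.98 in the cultures. The adult arrays were the lowest of the 12. Its index fell by 2.18 ± 0.24 (adjusted p = 0.00139), and by 1.21 ± 0.24 against P1 (adjusted p = 0.0121, lost without P1 replicate 2 at 0.0763). Probe set 10456038 read 4.28 to 5.41 in ES cells and embryonic bodies, 6.60 and 6.66 in cardiac bodies, 7.52 and 7.35 at E17.5, 8.58 and 9.0 at P1, and 9.50 and 9.37 in adults. Here the groups from cardiac bodies on formed a ladder without overlap, and the index rose by 1.76 ± 0.30 from E17.5 to adult (adjusted p = 0.00657). Probe set 10456037 read 2.25 to 3.62 on the culture arrays, 5.16 and 4.87 at E17.5, 5.58 and 6.46 at P1, and 7.97 and 7.34 in adults. The index also rose for 10456037 (2.41, adjusted p = 0.0123, lost without E17.5 replicate 2 or adult replicate 1, to 0.0753), 10456039 (1.43, adjusted p = 0.0111, lost without E17.5 replicate 2 at 0.0697) and 10456043 (1.18, adjusted p = 0.0373, lost without any of 9 arrays, to 0.200). It fell for 10456033 (-1.97, adjusted p = 0.0165, lost without E17.5 replicate 2 or adult replicate 1, to 0.102). Against P1 hearts the index of 10456037 rose by 1.86 (adjusted p = 0.0363), a call lost without any of 8 arrays (to 0.174).

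Camk2b, the beta subunit, whose neuronal form binds actin, did not follow the other kinase genes. It read 6.56 and 6.08 in ES cells, 5.54 and 5.79 in embryonic bodies, 6.70 and 6.42 in cardiac bodies, 5.80 and 6.09 at E17.5, 6.0 and 6.35 at P1, and 7.24 and 7.10 in adults. Adult hearts were highest and embryonic bodies lowest. Camk2b rose by 1.00 ± 0.22 from P1 to adult (adjusted p = 0.00383) and by 1.23 ± 0.22 from E17.5 to adult (adjusted p = 7.27e-04). At E17.5 Camk2b lay under the median of all genes (5.95 against 6.14), with 6 of 27 probe sets at or above the median, so no fold is given. It rose by 0.89 ± 0.22 from embryonic to cardiac bodies (adjusted p = 0.0174), a call lost without embryonic body replicate 1 or cardiac body replicate 1 (adjusted p 0.109 to 0.151). The only neighbouring step that passed was the last, from cardiac bodies to adult hearts (0.61, adjusted p = 0.0337).

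The adult rise was seen in several Camk2b probe sets. From E17.5 to adult 9 of 27 rose and 0 fell, beside 11.5% and 13.5% of all probe sets. They were led by 10384073 (3.19), 10384072 (2.68) and 10384077 (2.64). Probe set 10384077 read 6.48 and 6.45 in ES cells, 5.33 and 5.62 in embryonic bodies, 7.49 and 7.22 in cardiac bodies, 5.56 and 5.46 at E17.5, 6.32 and 6.58 at P1, and 8.12 and 8.18 in adults. It was higher in cardiac bodies than in embryonic bodies (1.88 ± 0.28, adjusted p = 0.00806) and than in E17.5 hearts (1.85 ± 0.28, adjusted p = 0.00503). Cardiac bodies and adult hearts thus stood above all other groups in this probe set. Camk2b was below the level filter in E17.5 hearts, so its index was not tested there, and the 16 of its probe sets tested between adult and P1 hearts gave 0 called.

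Ppp3ca, the alpha catalytic subunit of calcineurin, read 7.33 and 7.27 in ES cells, 8.74 and 9.46 in embryonic bodies, 8.60 and 8.36 in cardiac bodies, 9.21 and 9.14 at E17.5, 9.52 and 8.57 at P1, and 8.78 and 8.85 in adults. The ES cell arrays were lowest, and the other groups lay close together with wide replicates in embryonic bodies and at P1. Ppp3ca rose by 1.80 ± 0.29 from ES cells to embryonic bodies (3.49-fold, adjusted p = 7.12e-04), and this held without any array. Cardiac bodies exceeded ES cells by 1.18 ± 0.29 (adjusted p = 0.0208), a call lost without either array of either group (adjusted p 0.0601 to 0.170). After ES cells no neighbouring step passed. In embryonic bodies against ES cells 18 of 18 probe sets had positive changes (0.36 to 2.57), of which 8 rose, beside 4.04% of all probe sets.

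Against that flat later course, Ppp3ca probe set 10496339 read 8.53 to 9.56 on the 10 arrays before adulthood and 8.10 and 6.93 in adults. It fell by 1.92 ± 0.39 in its own signal from E17.5 to adult (adjusted p = 0.00702). Its index fell by 1.57 ± 0.42 (adjusted p = 0.0329, lost without either E17.5 array or adult replicate 2, to 0.155) and by 1.53 ± 0.42 from P1 (adjusted p = 0.0412, lost without any of 9 arrays, to 0.202, and with no level filter, 0.0511). Probe set 10496354 read 5.44 and 5.63 in ES cells, 6.39 and 7.14 in embryonic bodies, 7.64 and 7.14 in cardiac bodies, 8.32 and 8.38 at E17.5, 8.53 and 7.08 at P1, and 8.96 and 8.91 in adults. Unlike the gene it was highest in adults, and its index rose by 1.36 ± 0.25 from P1 (adjusted p = 0.00944, lost without P1 replicate 2 at 0.0608). The index of 10496340 rose by 1.87 ± 0.46 from E17.5 to adult (adjusted p = 0.0237, lost without E17.5 replicate 2 or either adult array, to 0.137).

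Ppp3cb, the beta catalytic subunit, was highest in adult hearts. Its signal was 8.72 and 8.77 in ES cells, 9.40 and 9.50 in embryonic bodies, 8.50 and 8.57 in cardiac bodies, 9.37 and 9.18 at E17.5, 9.26 and 8.78 at P1, and 10.19 and 10.06 in adults. Embryonic bodies stood above the other culture groups, and adult hearts above all. Ppp3cb rose by 1.1 ± 0.19 from P1 (2.15-fold, adjusted p = 7.30e-04) and by 0.85 ± 0.19 from E17.5 to adult (adjusted p = 0.00319), both kept without any array. It rose by 0.71 ± 0.19 from ES cells to embryonic bodies (adjusted p = 0.0166, lost without either ES cell array or embryonic body replicate 2, 0.0797 to 0.0990). It then fell by 0.91 ± 0.19 to cardiac bodies (adjusted p = 0.00633, lost without cardiac body replicate 1 at 0.0544). Cardiac bodies were 0.74 ± 0.19 below E17.5 hearts (adjusted p = 0.0112, lost without either cardiac body array or E17.5 replicate 1, to 0.0927, and with the median of the exon-level probe sets, 0.0766). Of its 15 probe sets 7 rose from P1 to adult and 0 fell, beside 8.47% and 10.5% of all probe sets. Probe set 10417909 moved most, from 8.81 and 8.33 at E17.5 and 8.24 and 8.07 at P1 to 11.26 and 11.10 in adults (3.03 ± 0.68 from P1, adjusted p = 0.015). No Ppp3cb index was called in any of the 7 comparisons.

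Rcan1, the inducible calcineurin regulator, rose out of ES cells and was highest at E17.5. It read 7.29 and 7.23 in ES cells, 8.84 and 7.87 in embryonic bodies, 8.65 and 8.41 in cardiac bodies, 9.38 and 9.21 at E17.5, 8.69 and 9.24 at P1, and 8.84 and 8.62 in adults. ES cells lay below all others, and the embryonic body arrays differed by nearly 1. Rcan1 rose by 1.1 ± 0.28 from ES cells to embryonic bodies (adjusted p = 0.0142, lost without either ES cell array or embryonic body replicate 1, 0.0700 to 0.148). Cardiac bodies exceeded ES cells by 1.27 ± 0.28 (adjusted p = 0.0118, lost without either ES cell array or cardiac body replicate 1, 0.0736 to 0.117). E17.5 hearts exceeded ES cells by 2.03 ± 0.28 (4.10-fold, adjusted p = 8.93e-05). Among the groups after ES cells no neighbouring step passed.

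The 9 Rcan1 probe sets differed in their courses, and 2 of the 9 had a called index in the F test. Probe set 10440998 read 5.48 and 5.70 in ES cells, 9.57 and 8.0 in embryonic bodies, 8.95 and 8.68 in cardiac bodies, 10.46 and 10.43 at E17.5, 8.42 and 9.27 at P1, and 9.55 and 8.15 in adults. It rose by 3.20 ± 0.58 from ES cells to embryonic bodies (adjusted p = 0.0121), against 1.1 for the gene. Its index differed among the 6 groups (F test, adjusted p = 0.0186) but was not called between ES cells and embryonic bodies. By contrast 10441001, not called in the F test (adjusted p = 0.137), read 8.96 to 9.77 on the arrays of the cultures and 9.81 to 10.33 at E17.5 and P1. It was thus already strong in ES cells. It read 10.90 and 10.87 in adults, and its index rose by 1.53 ± 0.41 from E17.5 to adult (adjusted p = 0.0323, lost without any heart array, to 0.132, and with the median of the other probe sets as the gene value, 0.0549). Its neighbour 10441002 rose by 1.49 ± 0.41 in index (adjusted p = 0.0366, lost without any of 10 arrays, to 0.178). Probe set 10440994 went the other way, from 8.22 and 8.05 at E17.5 and 7.47 and 8.14 at P1 to 6.50 and 5.72 in adults. Its index fell by 1.46 ± 0.25 against both E17.5 (adjusted p = 0.00591) and P1 (adjusted p = 0.00716), and both calls were kept without any array. The index of 10440999 rose by 1.42 ± 0.30 from P1 to adult (adjusted p = 0.0163, lost without either P1 array or adult replicate 1, to 0.0864, and with the median of the other probe sets, 0.0697). The gene-level signal, 0.56 ± 0.28 lower in adults than at E17.5 and not called (adjusted p = 0.144), thus stood for probe sets with changes from -2.03 to 0.97. Which of the starts shown above each probe set reads was not tested.

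Rcan2, a calcineurin regulator that is abundant in heart, brain and skeletal muscle, rose in a ladder. It read 5.67 and 5.22 in ES cells, 6.57 and 5.80 in embryonic bodies, 7.40 and 6.81 in cardiac bodies, 8.31 and 7.98 at E17.5, 8.77 and 9.32 at P1, and 10.40 and 10.46 in adults. No neighbouring groups overlapped. The steps that passed were from cardiac bodies to E17.5 hearts (1.04 ± 0.29, adjusted p = 0.0212, lost without cardiac body replicate 2 or either E17.5 array, to 0.216) and from P1 to adult hearts (1.39 ± 0.29, adjusted p = 0.0033). Adult hearts exceeded E17.5 hearts by 2.28 ± 0.29 (4.87-fold, adjusted p = 6.60e-05) and ES cells by 4.98 ± 0.29 (adjusted p = 2.77e-08). No fold is given against ES cells, where Rcan2 lay at 5.45, under the median of all genes (5.95), with 0 of 12 probe sets at or above the median. With the median of the exon-level probe sets as the gene value, cardiac bodies changed against E17.5 hearts by -0.43 in place of -1.04, which did not pass (adjusted p = 0.206). Cardiac bodies exceeded ES cells by 1.66 ± 0.29 (adjusted p = 0.00295), which without cardiac body replicate 1 gave an adjusted p of 0.0503.

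**Figure D3:**
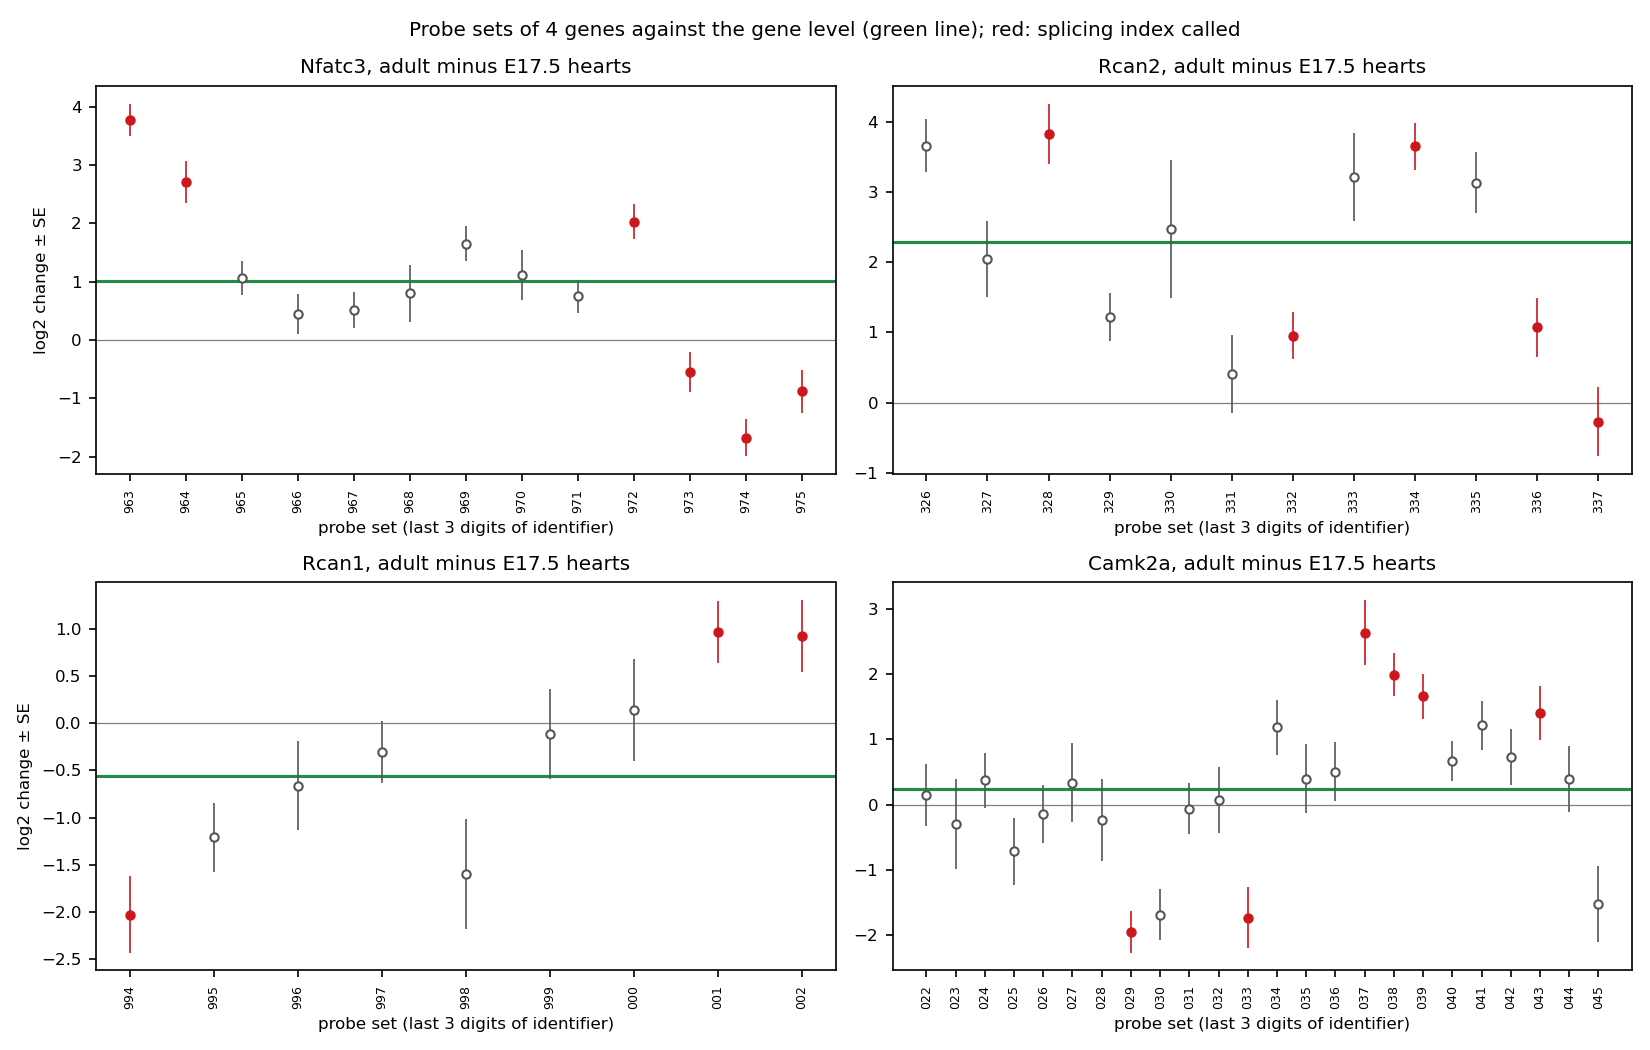
Log2 change ± SE from E17.5 to adult hearts of every probe set of Nfatc3, Rcan2, Rcan1 and Camk2a, in order of identifier. The green line is the gene-level change, the grey line is 0, and red points have a called splicing index. Nfatc3 runs from 3.78 (10574963) to -1.67 (10574974) around a gene-level rise of 1.02.

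Not all 12 Rcan2 probe sets climbed the whole ladder. Probe set 10445334 read 3.86 and 4.09 in ES cells, 5.34 and 4.93 in embryonic bodies, 5.94 and 6.10 in cardiac bodies, 7.17 and 7.28 at E17.5, 7.64 and 8.38 at P1, and 10.95 and 10.80 in adults. It rose by 3.65 ± 0.33 from E17.5 to adult (adjusted p = 2.17e-04), and its index by 1.37 ± 0.35 (adjusted p = 0.0264, lost without any E17.5 or adult array, to 0.122). Probe set 10445337 read 9.40 and 9.41 at E17.5, 10.20 and 10.14 at P1, and 9.47 and 8.79 in adults, so it did not share the adult rise. Its index fell by 2.56 ± 0.36 from E17.5 (adjusted p = 0.00328) and by 2.43 ± 0.36 from P1 (adjusted p = 0.00464), both kept without any array. The index of the neighbouring 10445336 fell by 1.21 from E17.5 (adjusted p = 0.0198, lost without either E17.5 array or adult replicate 2, to 0.0960) and by 1.58 from P1 (adjusted p = 0.00889, 0.0591 without P1 replicate 1). Probe set 10445326 stayed between 5.27 and 6.72 on the first 10 arrays and read 9.36 and 9.16 in adults, a rise of 3.67 ± 0.38 from E17.5 (adjusted p = 3.34e-04). Probe set 10445328 read 4.53 and 3.59 in ES cells, 5.32 and 4.91 in embryonic bodies, 7.31 and 6.42 in cardiac bodies, 7.83 and 7.68 at E17.5, 8.56 and 9.21 at P1, and 11.67 and 11.51 in adults. Its index rose by 1.55 from E17.5 (adjusted p = 0.00612) and by 1.32 from P1 (adjusted p = 0.0131, lost without either P1 array or adult replicate 1, to 0.0703). From P1 the index also rose for 10445334 (1.48) and 10445335 (1.03), and the index of 10445332 fell against P1 (-1.53) and E17.5 (-1.33), calls lost without at least 3 arrays each. With the median of the other probe sets as the gene value, the calls for 10445328, 10445332, 10445334 and 10445335 were all lost, while that of 10445337 was kept.

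Nfatc3, an NFAT factor that calcineurin moves to the nucleus in heart muscle, was lowest in the younger hearts. It read 8.38 and 8.39 in ES cells, 8.56 and 8.49 in embryonic bodies, 8.19 and 8.29 in cardiac bodies, 7.80 and 7.42 at E17.5, 7.82 and 7.61 at P1, and 8.82 and 8.45 in adults. The E17.5 and P1 arrays lay below the 8 others. Nfatc3 rose by 1.02 ± 0.19 from E17.5 to adult (2.03-fold, adjusted p = 0.00104) and by 0.91 ± 0.19 from P1 (adjusted p = 0.00288). Cardiac bodies were 0.63 ± 0.19 above E17.5 hearts (adjusted p = 0.0283, lost without either cardiac body array or E17.5 replicate 2, to 0.238, and with the median of the exon-level probe sets, 0.0702). The adult rises were kept without any array, and were lost with the median of the exon-level probe sets as the gene value (adjusted p = 0.140 and 0.339). In the order E17.5, P1, cardiac bodies, ES cells, embryonic bodies and adult hearts no neighbouring step passed.

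Nfatc3 had the most called probe sets of the 5 genes in the F test, 5 of its 13, where 13% of all probe sets tested were called. Probe set 10574963 read 6.39 and 6.18 in ES cells, 7.17 and 6.90 in embryonic bodies, 6.97 and 7.11 in cardiac bodies, 5.77 and 5.73 at E17.5, 6.97 on both P1 arrays, and 9.61 and 9.45 in adults. The adult arrays stood over 2 above all others. Its index rose by 2.76 ± 0.23 from E17.5 to adult (adjusted p = 7.24e-04) and by 1.65 ± 0.23 from P1 (adjusted p = 0.00375). Probe set 10574964 read 6.04 and 5.37 at E17.5, 5.15 and 4.79 at P1, and 8.62 and 8.21 in adults, and its index rose by 1.69 ± 0.26 (adjusted p = 0.00425) and 2.53 ± 0.26 (adjusted p = 0.00132). At the other end of the identifiers, 10574974 read 10.27 to 10.49 on the 6 culture arrays, 9.65 and 9.54 at E17.5, 10.02 and 9.76 at P1, and 8.28 and 7.56 in adults. It fell by 1.67 ± 0.32 from E17.5 to adult in its own signal (adjusted p = 0.00526) while the gene rose, and its index fell by 2.70 ± 0.22 (adjusted p = 7.24e-04) and by 2.89 ± 0.22 from P1 (adjusted p = 6.71e-04). The neighbours 10574973 (index -1.57, adjusted p = 0.00432) and 10574975 (index -1.89, adjusted p = 0.00433) fell as well from E17.5. Against P1 they fell by 1.90 (adjusted p = 0.00256) and 1.72 (adjusted p = 0.00736). All calls of these 5 probe sets were kept without any array, and 1 of them, 10574975 against P1, was lost with the median of the other probe sets as the gene value (adjusted p = 0.0562). The index of 10574972 rose by 1.01 from E17.5 (adjusted p = 0.0254), lost without any E17.5 or adult array (to 0.114).

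**Figure D4:**
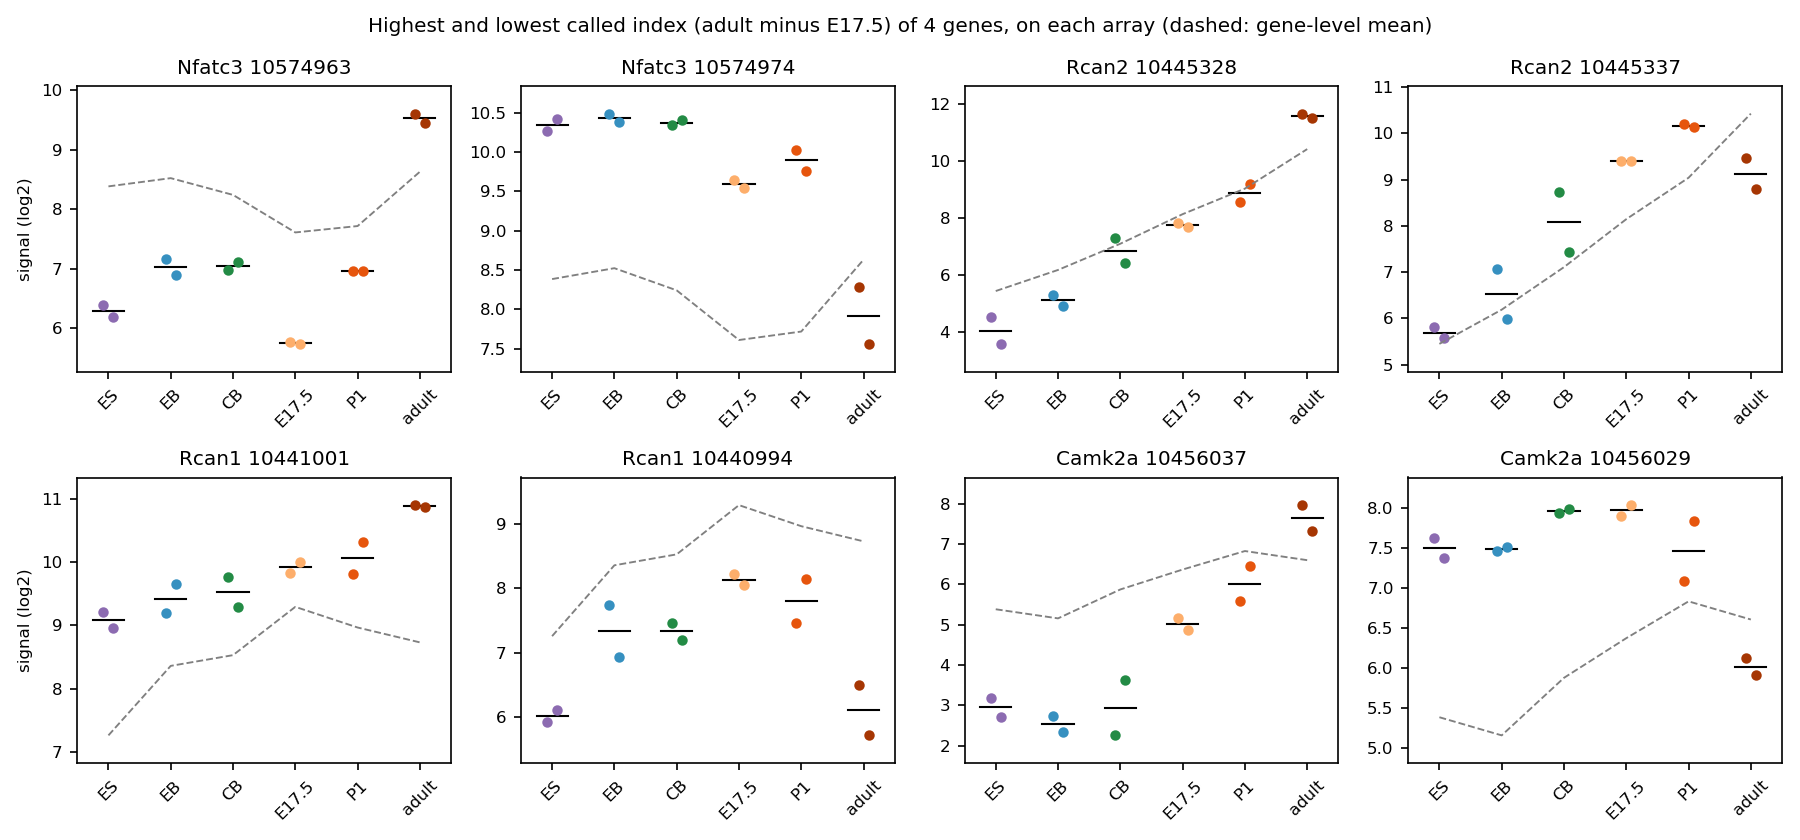
Log2 signal on each of the 12 arrays of the probe sets with the highest and the lowest called index change from E17.5 to adult hearts, for Nfatc3, Rcan2, Rcan1 and Camk2a. Points are arrays, bars are group means, and the dashed line joins the gene-level group means, so that a change of the gap between them is a change of index. In adult hearts Nfatc3 10574963 (mean 9.53) stands above and 10574974 (mean 7.92) below the courses they had in the other groups.

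Nfatc4, another NFAT factor linked to heart growth, read 6.41 and 6.23 in ES cells, 6.96 and 7.27 in embryonic bodies, 6.0 and 6.02 in cardiac bodies, 5.76 and 6.45 at E17.5, 6.34 and 6.54 at P1, and 5.29 and 5.66 in adults. Embryonic bodies were highest and adult hearts lowest. It rose by 0.79 ± 0.23 from ES cells to embryonic bodies (adjusted p = 0.029, lost without either ES cell array or embryonic body replicate 2, 0.0837 to 0.176, and under quantile normalization). It fell by 1.11 ± 0.23 to cardiac bodies (adjusted p = 0.00782, lost without embryonic body replicate 2 or cardiac body replicate 1, 0.0579 to 0.0605). It fell by 0.96 ± 0.23 from P1 to adult (adjusted p = 0.00759, lost without adult replicate 1 at 0.0711). All 3 calls were lost with the median of the probe sets as the gene value (adjusted p up to 0.535). In the order of levels the only neighbouring step that passed was from P1 hearts to embryonic bodies (0.68, adjusted p = 0.037). Of its 11 probe sets 1 was called between E17.5 and adult hearts, 10415407, which went from 6.55 and 7.55 to 5.14 and 5.86 (-1.55 ± 0.48, adjusted p = 0.0392). In adults 2 of the 11 lay at or above the median of all probe sets.

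Calm2 and Calm3, genes for the calmodulin that switches both enzymes on, were lower in adult hearts. Of 11 measured genes of 13 listed for calmodulin, other CaM kinases and CaMKII inhibitors, 5 fell and 1 rose from E17.5 to adult (median change -0.53, all genes 0.05), where 18% of all genes fell and 18.1% rose. Calm2 fell by 1.92 ± 0.19 (adjusted p = 7.58e-06) and Calm3 by 1.32 ± 0.17 (adjusted p = 6.97e-05). Camk1g fell by 1.40, whereas Camk2n1, an inhibitor of CaMKII, rose by 1.51 ± 0.20 (adjusted p = 7.40e-05). Camk2n1 had already risen from E17.5 to P1 (0.99 ± 0.20, adjusted p = 0.0121).

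Of 15 other calcineurin subunits, anchors and inhibitors, 6 rose and 3 fell from E17.5 to adult (median change 0.27, all genes 0.05), beside 18.1% and 18% of all genes, so the count that fell is near the background. The gamma catalytic subunit Ppp3cc rose by 1.88 ± 0.22 (adjusted p = 3.83e-05), beside the 0.85 of Ppp3cb. Myoz2, a Z-disc protein that binds calcineurin, rose by 2.11 ± 0.31 and Tesc by 1.78 ± 0.20. Ppia, the cyclophilin through which ciclosporin acts on calcineurin, fell by 1.74 ± 0.16. Cardiac bodies against E17.5 hearts gave 1 higher and 4 lower (12.1% and 11.6% of all genes), with the anchor Akap6 lower by 2.44 ± 0.33 (adjusted p = 2.00e-04) and Myoz2 by 1.94 ± 0.31 (adjusted p = 7.65e-04).

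Of 11 other NFAT factors and NFAT kinases, 4 rose and 4 fell from E17.5 to adult (median change 0.45, all genes 0.05), beside 18.1% and 18% of all genes. Among the listed kinases that phosphorylate NFAT, Gsk3a (1.92 ± 0.23) and Dyrk1a (1.21 ± 0.16) rose, and Csnk1a1 (-1.75 ± 0.18) and Dyrk2 (-1.20 ± 0.20) fell. Of 11 measured CaMKII substrates and effectors of 12 listed, 6 rose from ES cells to cardiac bodies (6.19% of all genes; median change 1.86, all genes -0.05). Cardiac bodies were lower than E17.5 hearts in 7 of the 11 (11.6% of all genes; median change -1.15, all genes -0.02). Pln, the SERCA inhibitor phospholamban, rose by 8.19 ± 0.24 from ES cells to cardiac bodies and Ryr2, the calcium release channel, by 3.53 ± 0.35. The calcium channel subunit Cacna1c was lower in cardiac bodies than at E17.5 by 1.69 ± 0.25 (adjusted p = 4.01e-04) and Mef2c by 1.81 ± 0.36 (adjusted p = 0.00303), beside the 1.2 for Camk2d. Of 13 splicing factors known to act on CaMKII transcripts or in heart splicing, 3 rose and 5 fell from E17.5 to adult (18.1% and 18% of all genes; median change -0.40, all genes 0.05), led by Rbfox1 (2.98 ± 0.23, adjusted p = 1.12e-06) and Srsf1 (-2.43 ± 0.26, adjusted p = 1.77e-05). Their part in the probe set changes was not tested.

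The genes whose gene-level course over the 12 arrays was most like each member's, among 9888 genes with group means spanning at least 1, are given as a description, since the arrays share 6 groups. For Camk2d they were Antxr2 (Pearson r = 0.99), Mef2a and Cap2 (both 0.98). For Camk2a they were Cyp2u1, Ndufa3 and Fabp3 (all 0.99), and for Rcan2 Csl, Tom1l2 and Trp53inp2 (all 0.99). Camk2g was most like Homer2 (0.98), Pip5k1b and Ifngr2 (both 0.97), and Camk2b most like Tesc (0.96), Pcsk6 and Rogdi (both 0.95). For Ppp3ca the list was Prkg1, Pex2 (both 0.97) and Mpdz (0.96), and for Ppp3cb Igsf10 (0.97), Casp8 and Syap1 (both 0.96). Rcan1 was nearest to Pgap4, Rasl11b (both 0.96) and Parva (0.94). The NFAT genes had the loosest partners, Nfatc3 with Cyb5b (0.95), Ppm1d and Pqlc3 (both 0.93) and Nfatc4 with Tmem128, Six2 (both 0.93) and B130006D01Rik (0.92).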

How the data were processed

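Gene-level and exon-level signals of the same 12 RNA samples were used. The deposited values are log2 signals that the authors made with RMA in Affymetrix Power Tools, per the submitters' processing notes. Neither tool versions nor the genome build is given in those notes, the labels or the files (not given in the sources used here), and signals were not tested against background. Gene names came from the platform annotation, without features that carry no symbol or more than 1. For genes with several transcript clusters the one with the highest mean was used. All 6703 features that occur at both levels had identical values in all 12 samples, so both levels come from the same arrays.

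Each of 7 comparisons was a contrast of 6 group means in limma (version 3.58.1, R 4.3.3, eBayes, 6 residual degrees of freedom), with Benjamini-Hochberg adjustment over all 19920 genes or all probe sets tested, called at 0.05. The splicing index needed at least 4 probe sets a gene, a gene mean not under percentile 50 in either group and a probe set mean not under it in both. Probe sets identical to their gene row (1847) were left out. A gene row summarises its own probe sets, so the index is not independent of it. Probe set values themselves were fitted over all 197711. The limma code was tested on simulated data. Every member is described. Probe sets named are all those of Camk2d and Camk2g, those called, and the extremes in adult against E17.5 hearts, with others chosen after their values were seen (such as those called in their own signal). From each list up to 4 called genes a comparison were eligible, and the 3 most alike genes were taken by Pearson correlation. The genes and lists were chosen with earlier results of these data known. Same-numbered replicates did not pair across groups. Array number (2 a group) limits precision. Alternatives were the replicate block, filters, normalization, the prior, the gene summary and leaving out each array. Figures used Python 3.11.15 and matplotlib 3.10.9.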

Additional observations from a re-analysis of the deposited data

How the results depend on the processing

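Across alternatives, 1172 of 1260 gene-level values of the members stayed on the same side of the threshold, 52 lost and 36 gained the call. Direction was compared only where a value was called in the main fit or in the alternative, and 0 of those reversed. Of 736 values of the called probe sets, 591 kept their call, 145 lost it and 0 reversed. Where a called probe set no longer passed the level filter of an alternative it was not tested, and such cases are not among the 736. Taking the median of the exon-level probe sets as the gene value gave 3 members called in cardiac against embryonic bodies, 1 in P1 against E17.5, 3 in adult against P1 and 2 in cardiac bodies against E17.5 hearts. Leaving out genes under the median in every group gave 7 in cardiac bodies against E17.5 hearts. With no level filter the index was called for 5 probe sets in embryonic bodies against ES cells, 6 in cardiac bodies against ES cells and 49 over any of the 6 groups, and with the 70th percentile for 5 over any group. The cause of these shifts was not tested. With 1 array left out in turn, the lone array was assumed to vary like the other groups. Gene-level counts then ran from 2 to 6 (embryonic bodies against ES cells), 0 to 6 (cardiac against embryonic bodies, 0 without cardiac body replicate 1), 1 to 5 (cardiac bodies against ES cells, 1 without cardiac body replicate 1), 0 to 1 (P1 against E17.5), 4 to 5 (both adult comparisons) and 1 to 8 (cardiac bodies against E17.5, 1 without cardiac body replicate 2). Index counts ran from 9 to 21 (adult against P1), 11 to 29 (adult against E17.5, 11 without E17.5 replicate 2) and 7 to 12 (any group). The replicate numbers share only a number: over 15 pairs of groups the deviations correlated at -0.18 to 0.29. With the replicate block 5 members were called in adult against E17.5 hearts, where 4 were without it, and the index was called for 26 and 18 probe sets in the adult comparisons. No other count of members called at gene level moved with the block. With 2 arrays a group, small differences were not detectable.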
